A study of Mus musculus with 20 samples.

Results

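B cells and Mac-1-positive monocytes/macrophages are 2 kinds of blood cell that can both take up antigen and show it to T cells, and their gene expression was compared here in sorted mouse cells. The comparison used the 2 arrays titled as B220(+) B lymphocytes (called B below) and the 2 titled as Mac-1(+) monocytes/macrophages (called Monocyte), which are 4 of the 20 arrays of a series on 10 haematopoietic populations. All 10 populations came from the C57BL/6 background, each with 2 biological replicates, and no allele or treatment is named for any of them. Cells were purified by sorting, and cRNA was made from RNA equal to 3000 cells with a two-step amplification, then read on Affymetrix Mouse Genome 430 2.0 arrays. The tissue of origin, the age of the mice, the animals behind each replicate and any gate beyond the named surface marker are not stated in the labels, so p-values measure the spread between these samples.

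B cells recognise whole antigen through a membrane antibody coupled to the signalling chains CD79A and CD79B, and they present the antigen they take up through that receptor. Monocytes and macrophages find microbes and opsonised particles through Toll-like, complement and Fc receptors and digest what they engulf. Both load peptides onto MHC class II molecules, which CD4 T cells read. B220 is a form of the phosphatase CD45 carried by B cells, and Mac-1 is the integrin made of the products of Itgam and Itgb2, which neutrophils carry as well as monocytes and macrophages.

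Values below are intensities of 1 probe set per gene, on the authors' scale, in which the trimmed mean of each array is 100, and they are given for replicate 1 and then replicate 2. Differences are B minus Monocyte on the log2(intensity + 6.75) scale with their limma standard error, so a negative difference means higher in Monocyte. A gene was called when its limma p-value, adjusted by the Benjamini-Hochberg method over all 14044 genes tested, was under 0.05 and its difference was at least 1 in size. Levels of different probe sets cannot be set against each other, and an intensity below 22.9, the median of all values, lies in the dim part of the array, where the pseudocount shrinks a difference.

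Of the 14044 genes, 3824 (27.2%) were called, 1909 (13.6%) higher in B and 1915 (13.6%) higher in Monocyte. These are the shares to set beside the counts of every gene list below. The median difference over all genes was 0.0088. In 9489 genes (67.6%) the arrays of the 2 populations did not overlap, so that lack of overlap is common in this comparison. Differences of 5 or more were found in 64 genes higher in B and in 154 higher in Monocyte. The arrays of a population correlated across genes at 0.967 in B and 0.959 in Monocyte, against 0.744 to 0.762 between a B and a Monocyte array. For Gapdh, the control probe set near the 3′ end read above the one near the 5′ end by a ratio of 4.99 and 4.24 in B and 3.34 and 3.10 in Monocyte, and for Actb the same ratio was 2.54 and 2.25 against 1.43 and 1.48. The ratios were higher in B, and their part in the differences was not tested.

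**Figure D1:**
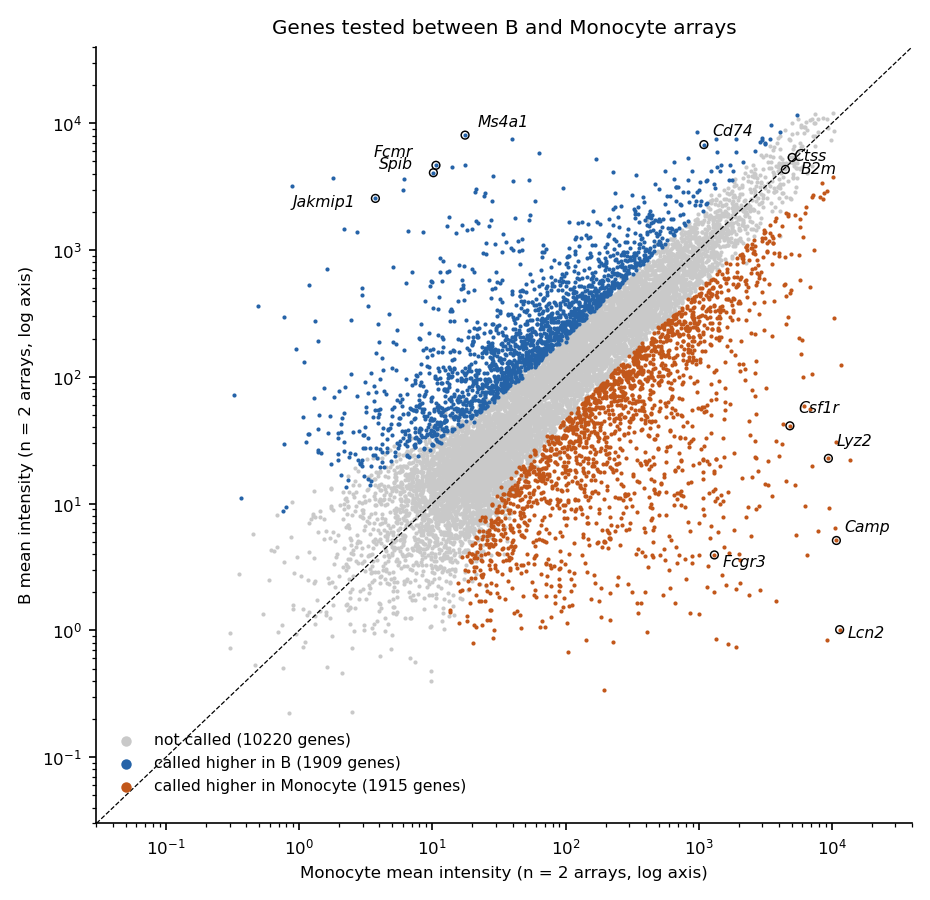
Mean intensity of each of the 14044 genes tested in Monocyte (horizontal) and B (vertical), both on log axes, with the 1909 genes called higher in B in blue, the 1915 called higher in Monocyte in orange and the rest in grey. Ms4a1, Spib, Fcmr and Jakmip1 lie at the upper left, Lcn2, Camp, Fcgr3, Csf1r and Lyz2 at the lower right, and B2m and Ctss near the dashed line of equal level.

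The labels were checked against defining genes. Ms4a1, which encodes the B cell surface protein CD20, read 8633 and 7504 in B and 14.01 and 21.2 in Monocyte, a difference of 8.39 ± 0.45 (adjusted p 4.6e-11). Lyz2, the lysozyme of phagocytes, read 22.9 and 22.6 in B and 10329 and 8516 in Monocyte (-8.31 ± 0.76, adjusted p 5.2e-08). Neither gene had overlapping arrays, and both directions are those the labels give, but Lyz2 read 10761 on average in the Gr-1-positive Neutrophil arrays too. Csf1r, the receptor for the growth factor that monocytes and macrophages depend on, read 42.2 and 39.97 in B and 3737 and 5948 in Monocyte, with a Neutrophil mean of 2278. Itgam, the gene of the Mac-1 α chain, read 1.31 and 11.00 in B and 506 and 405 in Monocyte, while Ptprc, whose probe set does not tell the B220 form from other forms of CD45, read 4997 and 4748 in B and 3893 and 4133 in Monocyte and so does not check the B sort.

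Neutrophil genes were present at high level in the Monocyte arrays and not in the B arrays. The 12 neutrophil markers tested summed to 314 and 182 in B, to 103242 and 84769 in Monocyte, and to 123076 on average in Neutrophil, and all 12 were called higher in Monocyte. Genes of the primary granules, which promyelocytes and early myeloid cells fill, went the other way between the myeloid populations: the 5 tested summed to 9108 and 9210.4 in Monocyte, 1003 in Neutrophil, and 59.8 and 72.1 in B. The Mac-1 arrays thus read genes of neutrophils and their precursors as well as of monocytes. In such bulk samples fewer cells of a type cannot be told apart from less RNA per cell. Neutrophil levels are given below beside most of the genes higher in Monocyte, and the part of neutrophil RNA in those differences was not tested. Over all 1915 genes called higher in Monocyte, the Neutrophil mean lay above both Monocyte arrays in 886 (46.3%) and below both in 743 (38.8%).

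Genes of the MHC class II pathway were more often higher in B. Of 15 genes tested, 10 were called higher in B and 0 higher in Monocyte, with a median difference of 2.01, beside 13.6% called higher in B over all genes. MHC class II molecules are pairs of an α and a β chain that fold around the invariant chain, encoded by Cd74, and the H2-DM protein later exchanges the remnant of that chain for peptide, a step that H2-O restrains. The genes are switched on together through promoter elements called the X box, bound by the RFX complex, and the Y box, bound by NF-Y, with the coactivator CIITA setting the level. To show these elements beside the values, promoter windows are given for the 4 listed genes in which cores of both boxes were found in order. They are 80 bases long and 5′ to 3′ on the gene strand, from RefSeq on GRCm38.p6, with the X box core GCAAC and the Y box core ATTGG in capitals.
H2-Aa: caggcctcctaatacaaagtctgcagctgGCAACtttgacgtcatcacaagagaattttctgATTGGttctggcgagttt
H2-Eb1: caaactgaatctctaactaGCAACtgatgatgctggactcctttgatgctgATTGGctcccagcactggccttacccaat
H2-Oa: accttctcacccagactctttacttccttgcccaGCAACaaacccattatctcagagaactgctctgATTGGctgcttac
H2-Ob: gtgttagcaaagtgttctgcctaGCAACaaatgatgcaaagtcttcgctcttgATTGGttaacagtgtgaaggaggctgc
H2-Aa encodes a class II α chain and its window lies at chr17:34287854-34287933 on the minus strand. H2-Eb1 encodes a β chain (chr17:34305757-34305836, plus strand), and H2-Oa (chr17:34092269-34092348, plus strand) and H2-Ob (chr17:34238795-34238874, plus strand) encode the chains of H2-O. The Y core began 48, 59, 43 and 57 bases before the annotated start of the 4 genes in that order, and 28, 27, 28 and 25 bases lay between the cores. Of 16 listed genes of the pathway 12 had a window of 300 bases in the table, 10 of these 12 held the Y core on either strand, and 4 held the X core before the Y core on the gene strand. Over all 32851 windows of that length the Y core was found in 37.4%, the X core in 35.2% on either strand, and X before Y on the gene strand in 2.41%. The letters, the order rule and the windows were chosen after the sequences and 16 motif spellings had been looked at, so these counts are descriptions and not tests.

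H2-Ob read 2876 and 3138 in B and 19.2 and 23.4 in Monocyte (6.75 ± 0.44, adjusted p 5.1e-10), the largest difference of the list. H2-Oa, its partner chain, read 1057 and 1306 in B and 57.5 and 30.9 in Monocyte (4.59 ± 0.33, adjusted p 1.8e-09). Both chains of the H2-DM inhibitor had no overlap, and the Monocyte arrays read near or somewhat above the array median. H2-DMa, a chain of the peptide exchanger itself, differed less, at 1669 and 1491 in B and 330.2 and 485 in Monocyte (1.96 ± 0.27, adjusted p 1.0e-05), and H2-DMb2 read 1489 and 1834 in B and 112 and 99.4 in Monocyte (3.89 ± 0.41).

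Of the classical chains and the invariant chain, H2-Ab1, H2-Eb1 and Cd74 were called higher in B, and H2-Aa was not. H2-Ab1, a β chain, read 3898 and 3379 in B and 689.9 and 606 in Monocyte (2.48 ± 0.52, adjusted p 8.0e-04). H2-Eb1 read 7899.9 and 7193 in B and 2337 and 1495 in Monocyte (2.01 ± 0.42, adjusted p 7.8e-04), and Cd74 read 7285 and 6302 in B and 1104 and 1086 in Monocyte (2.62 ± 0.28, adjusted p 3.3e-07). In these genes both B arrays lay above both Monocyte arrays. H2-Aa was not called with the probe set used for the fit, which read 5995 and 5208 in B and 3368 and 2489.7 in Monocyte (0.95 ± 0.55, adjusted p 0.2). Its other 3 probe sets above the filter gave larger differences: the first read 6945 and 6975 in B and 1397 and 1357 in Monocyte (2.33), the second differed by 2.24 and the third by 2.86. All 4 had no overlap between the populations, so the direction was shared and the size depended on the probe set, and only 1 of the other 3 was ever tested, under another probe set rule. In Neutrophil the means were 43.2 for H2-Aa, 12.5 for H2-Ab1, 41.5 for H2-Eb1 and 74.9 for Cd74, below every Monocyte array.

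Among the regulators, Ciita read 131 and 136 in B and 27.4 and 29.9 in Monocyte (1.99 ± 0.39, adjusted p 4.1e-04), and Rfx5, the DNA-binding subunit of the RFX complex, read 615 and 594 in B and 101 and 141 in Monocyte (2.27 ± 0.23, adjusted p 1.6e-07). The other RFX subunits were not called: Rfxap read 243 and 245 in B and 229 and 259 in Monocyte, with a 95% confidence interval of the difference from -0.47 to 0.48, and Rfxank read 136 and 87.3 in B and 99.8 and 66.2 in Monocyte. Of the processing enzymes, Ifi30, the thiol reductase that opens disulphide bonds of antigens, was higher in B at 6404 and 5443 in B against 995 and 1774 in Monocyte (2.15 ± 0.27, adjusted p 3.1e-06). Ctss, the cathepsin that trims the invariant chain, read 4531 and 4116 in B and 3494 and 5461 in Monocyte, with overlapping arrays and an interval from -0.54 to 0.51. Lgmn, the asparaginyl endopeptidase, read 177 and 202 in B and 73.9 and 64.8 in Monocyte and missed the threshold (adjusted p 0.087).

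MHC class I genes differed much less. Of 14 tested, 4 were called higher in B, beside 13.6% of all genes, and 0 higher in Monocyte. The median difference was 0.341, and 12 of the 14 differences were above 0. A further 8 were at a shared level, a rule that 17.8% of all genes met. It asks that the 95% interval of the difference lie within -1 to 1 and that both means be above 100. B2m, the light chain of class I molecules, read 5586 and 5174 in B and 5069 and 5004 in Monocyte (0.09 ± 0.12, interval -0.16 to 0.35), and H2-K1, a heavy chain, read 6822 and 5781 in B and 5111 and 5057 in Monocyte (interval -0.01 to 0.62). The other 3 probe sets of H2-K1 above the filter gave larger differences, of 0.67, 0.75 and 1.325. Both B arrays lay above both Monocyte arrays in each, so the size depended on the probe set. H2-D1, another heavy chain, was at a shared level with the probe set used, 7114 and 6009 in B and 5858 and 5845 in Monocyte, but all 8 of its probe sets above the filter ran from -1.09 to 2.53, so its difference is uncertain. The 4 called genes were Psmb8 (1.13 ± 0.22, not called without Monocyte replicate 1) and Psmb10 (1.59 ± 0.26), subunits of the immunoproteasome, Calr (1.47 ± 0.17), a chaperone of heavy chains, and Nlrc5 (1.5 ± 0.29), the coactivator of class I genes, which read 212 and 235 in B and 59.5 and 92.5 in Monocyte.

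Genes of contact with T cells were more often higher in B. Of 14 tested, 7 were called higher in B and 1 higher in Monocyte, beside 13.6% of all genes in each direction. The median difference was 1.1. Cd40, the receptor through which T cells license B cells and macrophages, read 957 and 1035 in B and 42.8 and 51.5 in Monocyte (4.22 ± 0.50, adjusted p 1.4e-06). Btla, an inhibitory receptor, read 5643 and 4837 in B and 60.97 and 276 in Monocyte (5.24 ± 0.41, adjusted p 6.6e-09), and Cd83, a protein that holds class II molecules at the surface, read 1269 and 1276 in B and 119 and 184 in Monocyte (3.05 ± 0.55). Each B array was above each Monocyte array in these genes. Of the CD28 ligands, Cd86 was higher in B at 162 and 142 in B against 41.7 and 69.5 in Monocyte (1.38 ± 0.51, adjusted p 0.042), while Cd80 read 15.5 and 37.3 in B and 69.9 and 70.6 in Monocyte and was not called (-1.3 ± 0.53, adjusted p 0.064). The call of Cd86 was lost without any one of B replicate 1, B replicate 2 and Monocyte replicate 1. Icosl, the ligand of the T cell receptor ICOS, was at a shared level, with an interval from -0.42 to 0.91. Havcr2, which encodes TIM-3, was the single gene called higher in Monocyte, at 28.2 and 19.5 in Monocyte against 3.29 and 2.32 in B.

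**Figure D2:**
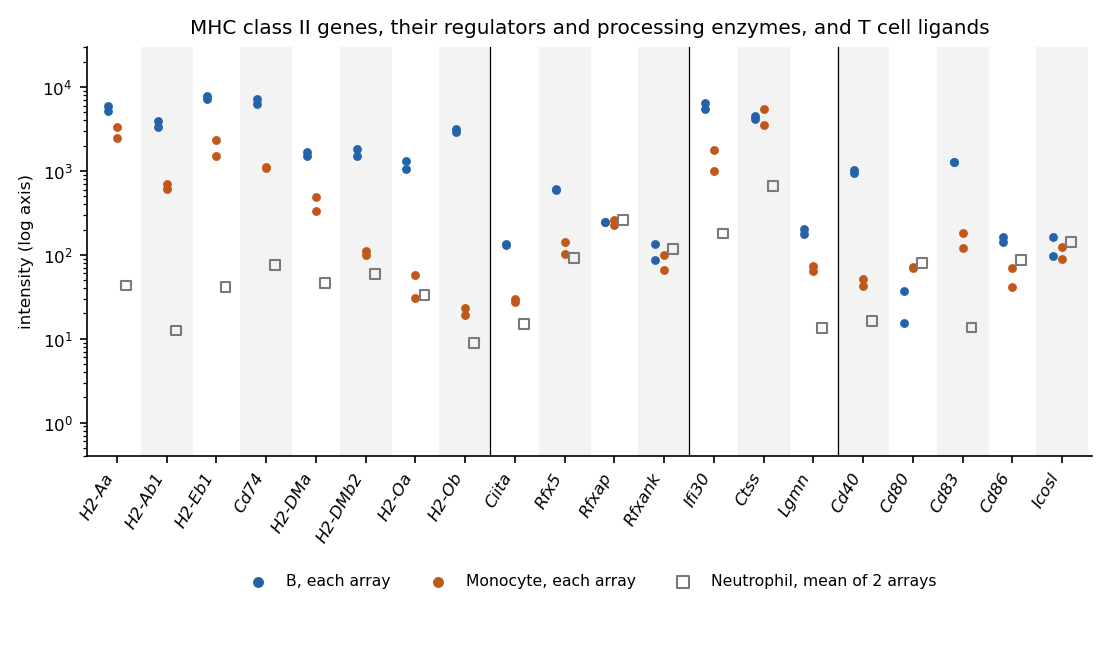
Intensity (log axis) of MHC class II genes, their regulators, processing enzymes and T cell ligands, separated by vertical lines, in each B array (blue), each Monocyte array (orange) and as the mean of the 2 Neutrophil arrays (open squares). H2-Ob and H2-Oa show the widest gaps between B and Monocyte among the class II genes, while the points of Rfxap, Ctss and Icosl lie close together.

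The antigen receptor of B cells and its co-receptors were higher in B in nearly all members. Of 14 genes tested, 12 were called higher in B and 0 higher in Monocyte, with a median difference of 4.9. Cd79b, a signalling chain of the receptor, read 8147 and 6799 in B and 28.6 and 50.9 in Monocyte (7.37 ± 0.44, adjusted p 1.6e-10), and Cd79a read 1389 and 1334 in B and 12.7 and 17.3 in Monocyte (5.98 ± 0.42). The 12 called genes had no overlap between populations. Cd22, an inhibitory co-receptor, differed by 6.23 ± 0.33, Cd72, another, by 6.91 ± 0.43, and Fcrla, a B cell protein related to Fc receptors, by 7.22 ± 0.55. Cr2, the complement receptor that lowers the threshold of B cell activation, read 518 and 521 in B and 12.8 and 6.39 in Monocyte (5.04 ± 0.45), and Fcer2a, the low-affinity IgE receptor CD23, read 776 and 635 in B and 14.6 and 24.9 in Monocyte (4.77 ± 0.44). Ighm, the heavy chain of IgM, read 9754 and 7442 in B and 824 and 1121 in Monocyte, where it was not dim (3.14 ± 0.27), and its Neutrophil mean was 784. With the mean of all its probe sets Ighm was not called. The 2 genes not called were Cd81, a tetraspanin, at a shared level (766 and 683 in B and 756 and 551 in Monocyte), and Cd24a, at 7566 and 5724 in B and 5622 and 4716 in Monocyte.

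Immunoglobulin variable segments and other lymphoid genes had the largest differences on the B side. The 12 genes with the largest differences included 3 antibody segments, Iglv1 (8.75 ± 0.67), Ighv14-2 (8.72 ± 0.39) and Igkv8-30 (8.22 ± 0.59), whose probe sets can bind related segments. Fcmr, the receptor for IgM, read 5169.7 and 4158 in B and 12.98 and 8.31 in Monocyte (8.07 ± 0.41, adjusted p 2.3e-11). Jakmip1, a microtubule-associated protein, read 2661 and 2451 in B and 1.44 and 6.03 in Monocyte (7.97 ± 0.24, adjusted p 3.6e-14), and Ly6d, a surface marker of B lineage commitment, read 4929 and 4179 in B and 17.7 and 10.4 in Monocyte (7.8 ± 0.51). The adhesion molecule Cd2 read 1473 and 1467 in B and 1.51 and 2.85 in Monocyte (7.37 ± 0.21). In these genes the B arrays were bright and both Monocyte arrays lay below the array median. The rest of the 12 were Ms4a1, Cd79b, Spib, Pou2af1 and Scd1, which are described with their groups.

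Downstream signalling genes were in part higher in B and in part shared. Of 16 genes of B cell receptor signalling, 7 were called higher in B, 1 higher in Monocyte, and 4 were at a shared level. Blk, a Src-family kinase of B cells, read 1229 and 1524 in B and 5.72 and 11.2 in Monocyte (6.52 ± 0.53, adjusted p 1.1e-08), and Blnk, the adaptor that links the receptor to phospholipase C, read 1710.2 and 1679 in B and 24.99 and 17.6 in Monocyte (5.94 ± 0.38, adjusted p 4.8e-10). Rasgrp3, an activator of Ras, differed by 5.61 ± 0.46, Bank1, a scaffold, by 3.52 ± 0.38, and Malt1, a protease of the NF-κB branch, by 2.36 ± 0.27. In contrast, Plcg2, the phospholipase itself, read 1712 and 1587 in B and 1762 and 1710.2 in Monocyte (interval -0.76 to 0.61), Vav1, an exchange factor, had an interval from -0.46 to 0.53, and Bcl10, the partner of Malt1, one from -0.26 to 0.33. The kinases Syk (2852 and 2621 in B and 1392 and 1073 in Monocyte, adjusted p 0.12) and Btk (579.8 and 576 in B and 364 and 295 in Monocyte, adjusted p 0.14) had no overlap but were not called. Pik3cd, the phosphoinositide kinase subunit p110δ, was called higher in Monocyte with the probe set used (478 and 572 in B and 2058 and 1818 in Monocyte), yet its other 4 probe sets above the filter gave differences from -0.35 to 1.34, so this call rests on 1 probe set.

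Transcription factors of the B lineage followed the receptor genes. Of 15 tested, 12 were called higher in B and 0 higher in Monocyte, with a median difference of 3.49. Spib, an Ets factor, read 4448 and 3702 in B and 9.27 and 11.1 in Monocyte (7.91 ± 0.42, adjusted p 4.0e-11), and Pou2af1, the coactivator of octamer-binding factors, read 2870.4 and 3057 in B and 8.84 and 3.16 in Monocyte (7.9 ± 0.50, adjusted p 3.1e-10). Ebf1, which specifies the B lineage, read 548 and 513 in B and 1.18 and 1.17 in Monocyte (6.08 ± 0.62), and Pax5, which maintains it, read 678 and 437 in B and 22.1 and 38.6 in Monocyte (3.93 ± 0.46). All 4 were clearly separated. Bach2, a repressor of plasma cell fate, differed by 6.33 ± 0.30, Foxo1 by 4.5 ± 0.31 and Irf4 by 4.73 ± 0.49. Myb and Ikzf1 were at a shared level, Myb at 581 and 582 in B and 709.8 and 621 in Monocyte, although a second, dimmer probe set of Ikzf1 differed by 1.29, and Bcl6, the germinal centre repressor, was not called at 306 and 235 in B against 436 and 349 in Monocyte.

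The BAFF ligand and its receptors were higher in opposite populations. Tnfsf13b, which encodes the B cell survival factor BAFF, read 9.98 and 16.3 in B and 1587 and 1055 in Monocyte (-6.05 ± 0.45, adjusted p 2.9e-09), with a Neutrophil mean of 1400.0, between the Monocyte arrays. Its receptor Tnfrsf13c read 2874 and 2805 in B and 24.4 and 25.03 in Monocyte (6.5 ± 0.41, adjusted p 2.9e-10), and Tnfrsf13b, which encodes the receptor TACI, read 722 and 776 in B and 66.4 and 168 in Monocyte (2.74 ± 0.44). The ligand was thus higher in Monocyte and both receptors higher in B. Tnfrsf17, the receptor of plasma cells, was dim in B and in the lower Monocyte array, at 11.04 and 7.97 in B and 12.99 and 23.8 in Monocyte.

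Genes of the early and of the late stages of the B lineage were mixed. Of 10 genes of early B development and recombination, 4 were called higher in B and 2 higher in Monocyte. Vpreb3, expressed through much of B development, read 968 and 944 in B and 14.8 and 32.9 in Monocyte (5.04 ± 0.49), and Rag1, a subunit of the recombinase, read 46.3 and 52.2 in B and 1.89 and 1.52 in Monocyte (2.73 ± 0.53, adjusted p 3.9e-04). Rag2, its partner, was called higher in Monocyte at dim levels, at 3.64 and 6.03 in B and 31.6 and 22.4 in Monocyte, Vpreb1, of the surrogate light chain, read 8.06 and 10.9 in B, and Dntt, the polymerase that adds bases at joints, 3.53 and 4.25, neither of them called. Of 12 plasma cell and secretory genes, 5 were called higher in B and 1 in Monocyte. Mzb1, a chaperone of antibody assembly, read 1502 and 1451 in B and 14.5 and 25.4 in Monocyte (5.83 ± 0.36), and Jchain, which joins IgM pentamers, read 632 and 379 in B and 16.7 and 17.01 in Monocyte (4.39 ± 0.89, adjusted p 6.0e-04). Prdm1, the plasma cell repressor, was not called, at 31.99 and 22.6 in B and 31.6 and 29.9 in Monocyte, and Xbp1, a factor of the secretory response, was higher in Monocyte, at 3248 and 3019 in Monocyte against 1340.2 and 1161 in B (-1.32 ± 0.14, adjusted p 4.4e-07).

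Genes of monocyte identity were high in Monocyte and low in B. Of 21 tested, 19 were called higher in Monocyte and 0 higher in B, with a median difference of -4.76, beside 13.6% called in that direction over all genes. Ccr2, the receptor that brings monocytes out of the bone marrow, read 2.05 and 12.1 in B and 617 and 1411 in Monocyte (-6.19 ± 0.45, adjusted p 2.4e-09), with a Neutrophil mean of 29.8. F13a1, a coagulation factor subunit made by monocytes, read 19.95 and 19.7 in B and 576 and 2331 in Monocyte (Neutrophil 106), and S100a4, a calcium-binding protein, read 8.74 and 14.5 in B and 623 and 2319 in Monocyte (Neutrophil 47.7). In these genes both Monocyte arrays were above the Neutrophil mean and replicate 2 was above replicate 1. Cx3cr1, the fractalkine receptor of patrolling monocytes, behaved alike at 10.3 and 5.09 in B, 259 and 639 in Monocyte and 29.6 in Neutrophil (-4.87 ± 0.53). Ms4a6d read 207 and 289.8 in Monocyte and 6.39 in Neutrophil (-4.76 ± 0.43), and Clec4a3, a C-type lectin, 595 and 1712 in Monocyte and 105 in Neutrophil (-6.84 ± 0.70).

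Across the 19 called genes of this list, the Neutrophil mean lay below both Monocyte arrays in 10 and above both in 6, and replicate 2 was the higher Monocyte array in 14. In the 12 neutrophil markers replicate 1 was the higher in all 12, so the Monocyte arrays differed from each other in the balance of these lists. Over all genes called higher in Monocyte, replicate 2 was the higher in 36.1%. Genes shared with Neutrophil included Itgb2, the β chain of Mac-1, at 5059 and 4800.3 in Monocyte and 7165 in Neutrophil (-3.32 ± 0.20), Lgals3, a galectin, at 5897 and 5825 in Monocyte and 8299.9 in Neutrophil (-5.22 ± 0.70), and Clec7a, the β-glucan receptor Dectin-1, at 1171 and 1579 in Monocyte and 2073 in Neutrophil (-6.26 ± 0.36). Ms4a6c was called higher in Monocyte (-3.94 ± 0.36), but its second probe set ran the opposite way (2.96), so its direction is uncertain. Fcgr1, the high-affinity IgG receptor, was not called with the probe set used (41.7 and 58.5 in B and 89.9 and 105 in Monocyte), while its other one read 18.01 and 20.9 in B and 130.4 and 254 in Monocyte, a difference of -2.85. Plac8 was at a shared level, at 3675 and 3863 in B and 4902 and 5335 in Monocyte.

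The genes with the largest differences on the Monocyte side were mostly secreted and granule proteins of neutrophils. Lcn2, the iron-binding protein lipocalin-2, read 0.7205 and 1.31 in B and 12230.5 and 10661 in Monocyte (-10.53 ± 0.78, adjusted p 2.8e-09), Camp, the cathelicidin precursor, 3.96 and 6.27 in B and 11928 and 9713 in Monocyte (-9.83 ± 0.99, adjusted p 1.9e-07), and Ltf, lactoferrin, 5.899 and 12.5 in B and 10209 and 8739.8 in Monocyte (-9.24 ± 0.56). Their Neutrophil means were 12748, 12205 and 10796, each above both Monocyte arrays. The same held for Hp, haptoglobin (10034 in Neutrophil, 8897 and 6957 in Monocyte), Cd177 (8099.6 in Neutrophil and 7229 and 5882 in Monocyte) and S100a9, a subunit of calprotectin (15435 in Neutrophil and 14773 and 12652 in Monocyte). Mmp9, a gelatinase, read 11597 in Neutrophil and 6160.1 and 4626 in Monocyte. The highest value on any of the 20 arrays was 19431. Chil3, Lyz1, Clec4a2, Fpr2 and Lrg1 made up the rest of the 12, with differences from -10.23 to -8.34, and in Clec4a2 the Neutrophil mean (4289) lay between the Monocyte arrays (4316 and 3238). Lyz1 and Lyz2 are near-identical and can share probes.

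Primary granule genes set the Monocyte arrays apart from Neutrophil. Elane, neutrophil elastase, read 3.64 and 14.5 in B and 2797 and 2553 in Monocyte (-7.5 ± 0.77, adjusted p 2.5e-07), Mpo, myeloperoxidase, 17.2 and 15.2 in B and 2179.8 and 2887 in Monocyte (-6.78 ± 0.53), and Prtn3, proteinase 3, 3.73 and 3.51 in B and 2143 and 1924 in Monocyte (-7.62 ± 0.57). Their Neutrophil means were 133, 286 and 199, below both Monocyte arrays in each case, and Ctsg (311 and 479) and Ms4a3 (1677 and 1367) had lower Neutrophil means too, at 102 and 283. Over the 10 populations, the sum of the 5 was highest in LinNeg, the lineage-negative cells, at 17324, where Mpo, Prtn3 and Ctsg had their highest means, while Elane and Ms4a3 were highest in Monocyte.

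Genes of tissue macrophages were also higher in Monocyte than in B. Of 18 tested, 15 were called higher in Monocyte and 0 higher in B, with a median difference of -2.25. The 18 summed to 3852 and 3122 in Monocyte, to 4021 on average in Neutrophil and to 4359 in NK, the highest population. C1qb, a chain of the complement initiator C1q, read 10.8 and 23.9 in B and 305 and 215 in Monocyte (-3.51 ± 0.62, adjusted p 1.6e-04), with a Neutrophil mean of 16.8, and C1qa (104 and 60.2 in Monocyte, 2.37 in Neutrophil) and C1qc (88.7 and 52.4 in Monocyte and 1.17 in Neutrophil) followed it. Cd163, the haemoglobin scavenger receptor, read 65.02 and 27.2 in Monocyte and 10.99 in Neutrophil (-2.67 ± 0.56), and Vcam1, an adhesion molecule of marrow macrophages, 183 and 75.5 in Monocyte and 35.5 in Neutrophil (-2.19 ± 0.54). In these 5 genes replicate 1 was the higher Monocyte array and the Neutrophil mean lay below both. Slc40a1, the iron exporter ferroportin, had the largest difference of the list, at 1.14 and 11.2 in B and 2134 and 1519.7 in Monocyte (-7.25 ± 0.69), but its Neutrophil mean was 3279. Adgre1, which encodes F4/80, read 76.4 and 90.6 in B and 221 and 386 in Monocyte (-1.73 ± 0.37), while Mertk, an efferocytosis receptor, read 19.1 and 6.74 in B and 12.8 and 18.4 in Monocyte, and Cd36, a scavenger receptor, read 205 and 173 in B and 38.2 and 136 in Monocyte without a call (adjusted p 0.055).

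Myeloid transcription factors were more often higher in Monocyte. Of 18 tested, 10 were called higher in Monocyte and 2 higher in B, beside 13.6% of all genes in each direction. The median difference was -2.15. Spi1, which encodes the Ets factor PU.1 used by both lineages, read 139 and 157 in B and 646 and 509 in Monocyte (-1.91 ± 0.23, adjusted p 2.0e-06), the opposite direction to its relative Spib. Cebpb, a C/EBP factor of myeloid cells, read 32.1 and 35.3 in B and 499 and 961 in Monocyte (-4.11 ± 0.39), Cebpd 14.5 and 1.32 in B and 2587 and 1947 in Monocyte (-7.43 ± 0.39), and Nfe2 9.78 and 11.3 in B and 1694 and 1359.5 in Monocyte (-6.46 ± 0.29), with Neutrophil means above the Monocyte arrays at 1463, 3605 and 3126. Id2, an inhibitor of E proteins such as Tcf3, read 43.02 and 76.1 in B and 1122 and 1203 in Monocyte (-4.19 ± 0.36), whereas Tcf3 itself was higher in B (2.3 ± 0.22). The 2 factors higher in B were Irf8, which directs monocyte and B cell development, at 2803 and 2643 in B against 165 and 468 in Monocyte (3.26 ± 0.45, adjusted p 1.1e-05), and Irf5, at 398 and 483 in B against 64.4 and 193 in Monocyte (1.9 ± 0.37). Klf4 (118 and 330.1 in B and 173 and 668 in Monocyte) and Nr4a1 (98.1 and 87.1 in B and 133 and 593 in Monocyte), factors of monocytes, were not called, and their Monocyte arrays differed widely from each other.

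The activating Fc receptors Fcgr3 and Fcgr4 were higher in Monocyte, Fcgr1, described above, was not called, and the inhibitory one was at a shared level. Fcgr3, an activating IgG receptor, read 5.01 and 2.85 in B and 1389 and 1236 in Monocyte (-6.95 ± 0.39, adjusted p 7.1e-11), and Fcgr4, another, 28.04 and 15.8 in B and 411 and 431 in Monocyte (-3.93 ± 0.41). Fcer1g, the signalling chain they need, read 22.5 and 23.7 in B and 2731 and 2654 in Monocyte (-6.5 ± 0.31, adjusted p 9.6e-12), and Tyrobp, the adaptor DAP12, 214 and 189.6 in B and 5967 and 5275 in Monocyte (-4.75 ± 0.44). All 4 had no overlap and were higher in Neutrophil than in either Monocyte array. Fcgr2b, the inhibitory IgG receptor of B cells and myeloid cells, read 701 and 757 in B and 999 and 1086 in Monocyte (-0.51 ± 0.20, interval -0.94 to -0.08), and its 3 other probe sets above the filter gave -0.33, -0.36 and -0.44. Of 11 genes of the group, 5 were called higher in Monocyte and 1, Fcmr, higher in B.

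Toll-like receptors and their helpers were called in either direction. Of 22 tested, 3 were called higher in B, the same share as the 13.6% of all genes, and 6 higher in Monocyte, and the median difference was -0.27. Tlr2, which senses bacterial lipoproteins, read 103 and 84.9 in B and 449 and 595 in Monocyte (-2.39 ± 0.27, adjusted p 8.1e-07), Tlr13, a sensor of bacterial ribosomal RNA, 1.58 and 7.15 in B and 263 and 439 in Monocyte (-5.01 ± 0.42), and Cd14, the co-receptor for lipopolysaccharide, 25.9 and 11.8 in B and 179.8 and 666 in Monocyte (-3.85 ± 0.55). Their Neutrophil means were 1663, 911 and 469.6. Tlr1, a partner of Tlr2, went the other way, at 878 and 887 in B and 56.8 and 76.8 in Monocyte (3.61 ± 0.35, adjusted p 9.2e-08). Ly86, which encodes MD-1, the partner of the B cell receptor CD180, was higher in B at 3063 and 2854 in B against 625 and 1391 in Monocyte (1.66 ± 0.52, adjusted p 0.016), while Cd180 itself was not called (176 and 164 in B and 58.1 and 124 in Monocyte, adjusted p 0.085) and Ly96, the MD-2 partner of Tlr4, read 111 and 126 in B and 141 and 137 in Monocyte. The calls of Ly86 and Unc93b1 were lost without B replicate 1, B replicate 2 or Monocyte replicate 1. Tlr4 read 73.2 and 95.4 in B and 147 and 164 in Monocyte, a difference of -0.84 ± 0.29 that missed the size needed for a call. Its other 2 probe sets above the filter gave -1.23 and -0.60, so the size depended on the probe set. The nucleic acid receptors Tlr7 (77.6 and 79.6 in B and 73.1 and 127 in Monocyte) and Tlr9 (51.1 and 38.4 in B and 49.95 and 59.5 in Monocyte) were not called, and Unc93b1, which carries them to endosomes, was higher in B (1.01 ± 0.30). Among adaptors, Myd88 (-1.4 ± 0.29) and Tirap (-1.5 ± 0.27) were higher in Monocyte, with Neutrophil means of 1002 and 1442.

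**Figure D3:**
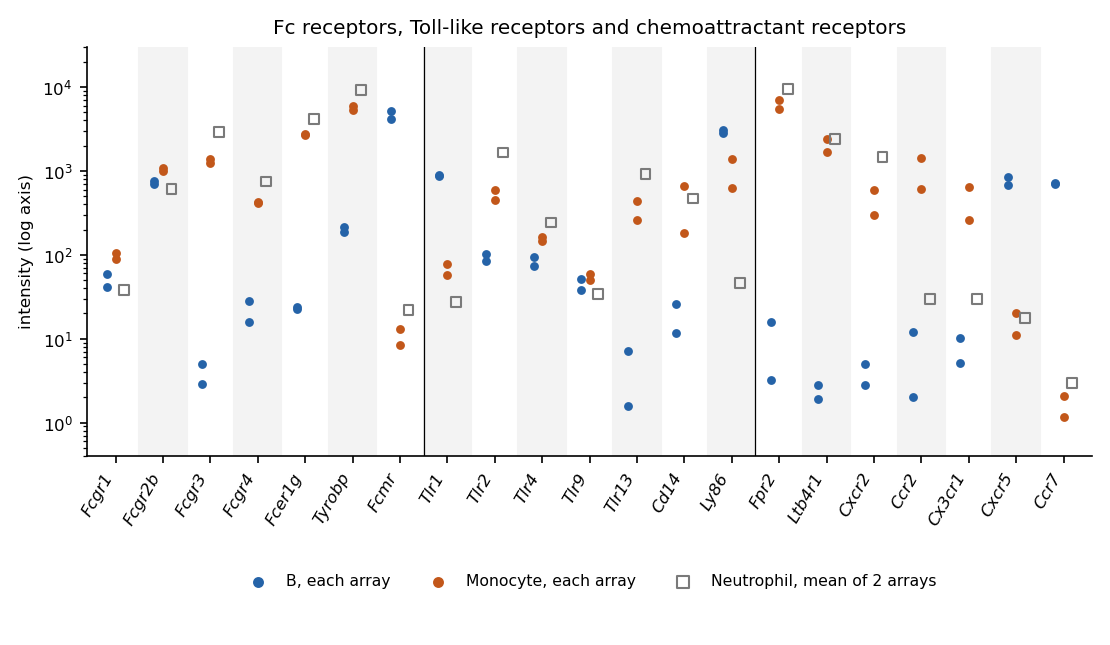
Intensity (log axis) of Fc receptors with their adaptors, Toll-like receptors with partners, and chemoattractant receptors, separated by vertical lines, in each B array (blue), each Monocyte array (orange) and as the mean of the 2 Neutrophil arrays (open squares). Fcgr2b lies close together in both populations while Fcgr3 and Fcer1g are far apart, Tlr1 and Tlr2 run in opposite directions, and Ccr2 and Cx3cr1 are well above Neutrophil in both Monocyte arrays.

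Effector genes of phagocytes were more often higher in Monocyte. Of 6 genes of the phagocyte NADPH oxidase, 4 were called higher in Monocyte. Cybb, the catalytic subunit, read 882 and 945 in B and 5937 and 5387 in Monocyte (-2.62 ± 0.46, adjusted p 1.3e-04), and Cyba, its membrane partner, 2821 and 2602 in B and 7846 and 6687 in Monocyte (-1.42 ± 0.15). Both subunits read far above the array median in B as well, and their Neutrophil means were 6349 and 8676. In all 4 called genes the Neutrophil mean lay above both Monocyte arrays. Hvcn1, the proton channel that supports the oxidase, read 1788 and 1691 in B and 1067 and 826 in Monocyte, short of the size for a call (0.88 ± 0.29). Of 9 inflammasome and interleukin-1 genes, 5 were called higher in Monocyte and 0 higher in B. Il1b read 25.2 and 31.99 in B and 743 and 465 in Monocyte (-4.08 ± 0.41, adjusted p 1.9e-07), and Nlrp3, a sensor, 13.7 and 10.7 in B and 176 and 176 in Monocyte (-3.28 ± 0.36), with Neutrophil means of 2041 and 203. Casp1, the protease that cuts the Il1b product, was at a shared level (349 and 417 in B and 299.7 and 419 in Monocyte, interval -0.42 to 0.63), as was the adaptor Pycard (interval -0.83 to -0.08).

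Lysosomal genes were called higher in Monocyte or not called. Of 18 tested, 9 were called higher in Monocyte, 0 higher in B, and 4 were at a shared level, with a median difference of -1.03. Over all genes 13.6% were called higher in Monocyte. The share at a shared level was near the 17.8% of all genes. Ctsd, an aspartic protease, read 187 and 175 in B and 1350.2 and 1065 in Monocyte (-2.69 ± 0.15, adjusted p 1.1e-10), Ctsb, a cysteine protease, 679 and 675 in B and 2589.9 and 3253 in Monocyte (-2.09 ± 0.20), and Cd68, a lysosomal membrane glycoprotein, 38.9 and 36.8 in B and 405 and 817 in Monocyte (-3.71 ± 0.44). Ctsb and Cd68 had Neutrophil means below both Monocyte arrays (1691 and 346), whereas Ctsd was higher in Neutrophil (2824). Grn, progranulin (4732 and 4519 in B and 6407 and 5834 in Monocyte), and Laptm5, a lysosomal membrane protein of blood cells (4858 and 4244 in B and 4936 and 4158 in Monocyte), were at a shared level with the probe set used. The other 4 probe sets of Laptm5 above the filter ran from -0.75 to 1.11, so its difference is uncertain. The other 2 of Grn gave -0.94 and -0.63. Ctsz (2710.3 and 2064 in B and 1219 and 1659.8 in Monocyte) and Ctsc (2707 and 2249 in B and 1148 and 2228 in Monocyte), other cathepsins, had the higher mean in B and were not called. The other 2 probe sets of Ctsz above the filter gave 1.495 and 1.189, and with the mean of all probe sets Ctsz was called.

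Most genes of leukotriene and prostaglandin synthesis were higher in Monocyte. Of 11 tested, 8 were called higher in Monocyte and 0 higher in B, with a median difference of -3.66. Alox5ap, which hands arachidonic acid to the lipoxygenase, read 53.7 and 57.6 in B and 7306 and 6445 in Monocyte (-6.78 ± 0.52, adjusted p 5.0e-09), Alox5 itself 18.4 and 26.4 in B and 1567 and 1124 in Monocyte (-5.53 ± 0.46), and Lta4h, the hydrolase that completes leukotriene B4, 523 and 505 in B and 7411 and 6197 in Monocyte (-3.7 ± 0.14, adjusted p 4.4e-13). The receptor for that product, Ltb4r1, read 2.81 and 1.902 in B and 2379 and 1684 in Monocyte (-7.79 ± 0.32). Neutrophil means were 8973, 2165, 6176 and 2388 in the same order. Ltc4s, the leukotriene C4 synthase, read 5.07 and 6.81 in B and 26.6 and 18.5 in Monocyte and was not called (-1.19 ± 0.59, adjusted p 0.12), nor were Ptges and Alox12. Hpgd, which breaks prostaglandins down, read 244 and 756 in Monocyte and 12.3 in Neutrophil (-4.88 ± 0.76).

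Glucose and lipid genes took different sides. Of 19 tested, 11 were called higher in Monocyte and 5 higher in B. The glycolytic enzymes Hk2 (160.2 and 149 in B and 890.0 and 906 in Monocyte, -2.49 ± 0.32), Pgk1 (2378 and 1993 in B and 7342 and 5536 in Monocyte, -1.55 ± 0.14) and Pkm (469 and 458 in B and 3351 and 2625 in Monocyte, -2.66 ± 0.16) were higher in Monocyte, with Neutrophil means of 1019.5, 7896 and 4314, above both Monocyte arrays. The glucose carriers split, with Slc2a3 higher in Monocyte (-3.19 ± 0.16) and Slc2a1 higher in B (1.24 ± 0.22). Enzymes that make fatty acids were higher in B: Scd1, the stearoyl-CoA desaturase, read 5025 and 4355 in B and 5.36 and 29.9 in Monocyte (7.8 ± 0.55, adjusted p 1.6e-09), Scd2 929 and 863 in B and 181 and 251 in Monocyte (2.04 ± 0.25), and Fasn, the fatty acid synthase, 186 and 139 in B and 8.06 and 4.18 in Monocyte (3.72 ± 0.26, adjusted p 1.1e-09). Other lipid genes were called in either direction. Lpl, lipoprotein lipase, read 9.65 and 2.45 in B and 249 and 1470.0 in Monocyte (-5.65 ± 0.89, adjusted p 4.7e-05), and Apoe 445 and 413 in B and 1226 and 3364 in Monocyte (-2.23 ± 0.64, adjusted p 0.01), both far above their Neutrophil means of 8.22 and 62.4 and both higher in Monocyte replicate 2. Abca1, a cholesterol exporter, was higher in B (3.02 ± 0.34). The call of Apoe was lost without B replicate 2 or Monocyte replicate 2, and with the mean of all probe sets Scd2 and Slc2a1 were not called.

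Chemokines and receptors for migration were called in either direction. Of 25 chemokines and chemoattractant receptors, 5 were called higher in B and 11 higher in Monocyte. Cxcr5, which leads B cells into follicles, read 841 and 683 in B and 11.2 and 20.5 in Monocyte (5.11 ± 0.42, adjusted p 1.2e-08), Ccr7, which leads lymphocytes to T zones, 717 and 707 in B and 1.17 and 2.07 in Monocyte (6.43 ± 0.44, adjusted p 1.1e-09), and Ccr6 450.3 and 561 in B and 19.2 and 40.4 in Monocyte (3.87 ± 0.43). S1pr1, the egress receptor, was higher in B (3.19 ± 0.30), as was Gpr183, the oxysterol receptor (2.32 ± 0.51). On the Monocyte side, Fpr2, a formyl peptide receptor, read 15.9 and 3.25 in B and 7101 and 5509.6 in Monocyte (-8.7 ± 0.40), and Cxcr2, a neutrophil chemokine receptor, 2.83 and 5.0 in B and 599 and 298 in Monocyte (-5.34 ± 0.39), with higher Neutrophil means of 9544 and 1479. Ccl9, a chemokine of myeloid cells, read 519.5 and 1648 in Monocyte and 111 in Neutrophil (-5.0 ± 0.54). Cxcr4, which keeps cells in the marrow, was at a shared level, at 363 and 385 in B and 379 and 377 in Monocyte (interval -0.37 to 0.33).

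Of 19 integrin and adhesion genes, 11 were called higher in Monocyte and 2 higher in B, beside 13.6% of all genes in each direction. Itgax, the CD11c chain, read 20.7 and 22.7 in B and 139 and 129.5 in Monocyte (-2.31 ± 0.31), above a Neutrophil mean of 58.5, and Spn, which encodes CD43, 110.3 and 65.3 in B and 734 and 762 in Monocyte (-3.04 ± 0.19, adjusted p 4.0e-10, Neutrophil 419). Icam2 was higher in B, at 1106 and 1029.7 in B against 84.7 and 167 in Monocyte (3.09 ± 0.25), and Pecam1 too (2.06 ± 0.58), a call lost without B replicate 2 or Monocyte replicate 1. The α4 chain Itga4 had the higher mean in B without a call (0.82 ± 0.20).

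Cytokine and growth factor receptors were more often higher in Monocyte. Of 27 tested, 14 were called higher in Monocyte and 6 higher in B. Csf3r, the receptor for G-CSF, read 34.6 and 6.61 in B and 1401 and 993 in Monocyte (-5.66 ± 0.54, Neutrophil 3117), and Csf2ra, for GM-CSF, 74.1 and 58.8 in B and 735 and 759.5 in Monocyte (-3.37 ± 0.28, Neutrophil 1141). Tnfrsf1b, a TNF receptor, read 63.2 and 76.1 in B and 438 and 821 in Monocyte (-2.99 ± 0.27), above its Neutrophil mean of 207. In all 3 both Monocyte arrays were above both B arrays. Il21r, which drives antibody responses, read 176 and 184 in B and 33.7 and 20.4 in Monocyte (2.49 ± 0.39), and Tgfbr2, a TGF-β receptor, 1679 and 1751 in B and 365 and 429 in Monocyte (2.1 ± 0.18, adjusted p 3.2e-08). Il4ra was called higher in B (1.93 ± 0.33), but 1 of its 2 other probe sets had the opposite sign, so its direction is uncertain, and with the mean of all probe sets Tgfbr2 was not called. The interferon receptor chains split, with Ifnar1 higher in B (1.07 ± 0.22) and Ifnar2 (-2.13 ± 0.23) and Ifngr1 (-1.04 ± 0.22) higher in Monocyte. The call of Ifnar1 was lost without Monocyte replicate 1, and that of Ifngr1 without B replicate 1 or Monocyte replicate 2.

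Mitosis genes were higher in Monocyte, while the share of replication genes called was near that of all genes. All 22 mitosis genes tested were called higher in Monocyte, with differences from -3.34 to -1.45 and a median of -2.32. Cdk1, the mitotic kinase, read 155 and 98.6 in B and 1095 and 809 in Monocyte (-2.86 ± 0.26, adjusted p 4.7e-08), Prc1, of the central spindle, 72.1 and 41.6 in B and 724 and 528 in Monocyte (-3.34 ± 0.32), and Mki67 1117 and 436 in B and 3757 and 3354 in Monocyte (-2.33 ± 0.39). In all 22 the Neutrophil mean lay below both Monocyte arrays, as at 260.3 for Cdk1. Of 22 replication genes, 5 were called higher in Monocyte and 1 higher in B, and 9 were at a shared level. Over all genes 27.2% were called in either direction and 17.8% were at a shared level. Pcna, the sliding clamp, read 3028 and 2367 in B and 3179 and 2913 in Monocyte (interval -0.58 to 0.21), and Mcm3, of the replicative helicase, 530.2 and 457 in B and 556 and 502 in Monocyte (interval -0.48 to 0.28). Rrm2, a ribonucleotide reductase subunit, was higher in Monocyte, at 3217 and 2358 in Monocyte against 939 and 595 in B (-1.87 ± 0.34), and Pold1, a DNA polymerase subunit, was the gene higher in B (1.74 ± 0.22). Replication genes were thus often at a shared level while every mitosis gene tested was lower in B.

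Ribosome biogenesis ran the other way, with 20 of 22 genes called higher in B and 0 higher in Monocyte, and a median difference of 2.01. Npm1, nucleophosmin, read 4403 and 4000.1 in B and 671 and 1119 in Monocyte (2.27 ± 0.23, adjusted p 1.7e-07), Ncl, nucleolin, 1861 and 1475 in B and 334 and 381 in Monocyte (2.2 ± 0.19), and Fbl, fibrillarin, 1766 and 1378 in B and 206 and 251 in Monocyte (2.74 ± 0.30). The widest gap was in Tsr1, a maturation factor of the small subunit, at 1092 and 1099.6 in B against 50.02 and 85.5 in Monocyte (3.93 ± 0.31, adjusted p 6.1e-09). Neutrophil means were lower than both Monocyte arrays in these 4, at 231, 204, 52.8 and 20.9. Bop1 and Polr1b were the members not called.

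Of the BCL2 family, 2 of 14 genes were called higher in B, a share near the 13.6% of all genes, and 0 higher in Monocyte. Bcl2, which blocks cell death, read 749 and 598 in B and 12.4 and 28.6 in Monocyte (4.7 ± 0.44, adjusted p 7.9e-08), while its relatives Mcl1 (8268 and 6664 in B and 4453 and 5029.9 in Monocyte) and Bcl2l1 (117 and 102 in B and 106 and 97.2 in Monocyte) were at a shared level. The other 5 probe sets of Mcl1 above the filter gave larger differences, from 0.72 to 1.31. Both B arrays lay above both Monocyte arrays in each, so the shared level of Mcl1 depends on the probe set. Bmf, a pro-death member, was the second called (1.21 ± 0.41, adjusted p 0.025), a call lost without any one array other than Monocyte replicate 2. Of 17 interferon response genes, 9 were called higher in Monocyte and 0 higher in B. Ifih1, an RNA sensor, read 46.9 and 42.5 in B and 397 and 539 in Monocyte (-3.19 ± 0.25, adjusted p 5.8e-09), and Oas3, which makes oligoadenylates, 5.902 and 8.16 in B and 171 and 126 in Monocyte (-3.48 ± 0.38), with Neutrophil means of 414 and 465. Mx1 (91.6 and 77.2 in B and 46.6 and 128 in Monocyte) and Irf9 (373 and 392 in B and 232 and 399 in Monocyte) had overlapping arrays.

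**Figure D4:**
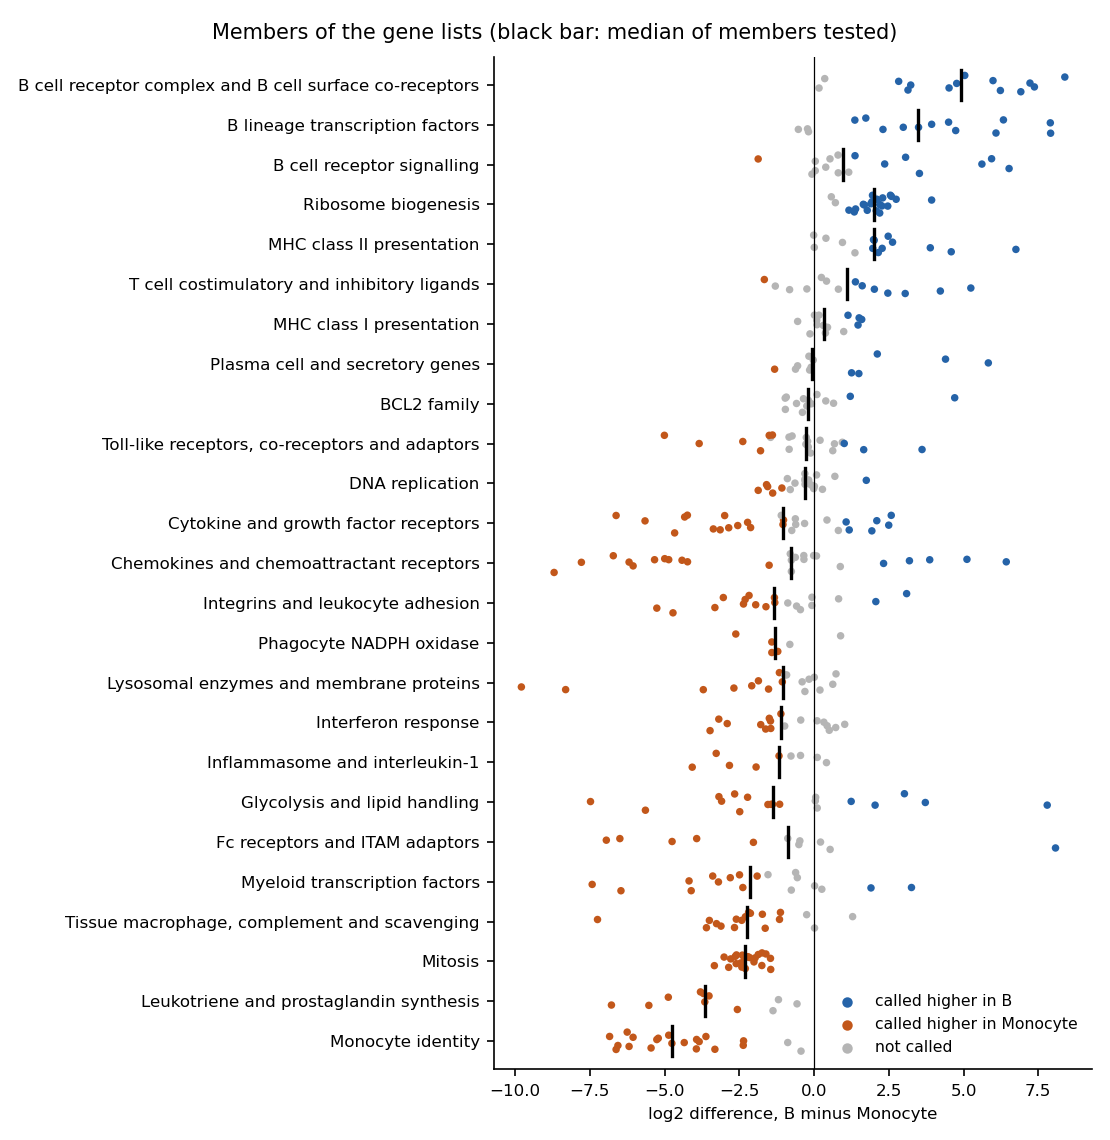
Log2 difference (B minus Monocyte) of each tested member of 25 gene lists, blue where called higher in B, orange where called higher in Monocyte and grey where not called, with the median of the members as a black bar. The B cell receptor and B lineage factor lists lie to the right, the monocyte and leukotriene lists to the left, all 22 mitosis genes are orange and 20 of 22 ribosome biogenesis genes are blue.

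Some genes were alike in both populations with the probe set used, and their means were lower in the other 8. Among the 2495 genes at a shared level, the 10 that stood furthest above every other population were led by Myo7a, an unconventional myosin, at 109 and 108 in B and 89.2 and 113 in Monocyte, with the next highest mean, 67.1, in NK and a gap of 0.57 on the log2 scale. Gmppb, which makes GDP-mannose, followed at a gap of 0.23, with 88.2 and 138 in B and 127 and 109.5 in Monocyte. Atp2a3, a calcium pump (724 and 741 in B and 814 and 723 in Monocyte), Yeats4, a chromatin reader (854 and 926 in B and 709 and 733 in Monocyte), and Clta, a clathrin light chain (4403 and 3963 in B and 4351 and 3589 in Monocyte), had gaps of 0.12, 0.12 and 0.10. The other 2 probe sets of Clta above the filter were higher in B, by 2.67 and 0.84. The brighter of these read 1339 and 1135 in B and 155 and 228 in Monocyte. The shared level of Clta thus depends on the probe set, and with the mean of all probe sets Clta was called. Zfp131, Dxo, Rufy1, Polg and Kdm3b had gaps from 0.05 to 0.07. All 10 gaps were under the difference of 1 that a call needs, and no test was made of them.

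Markers of further cell types were mostly low in all 4 arrays. The 9 B cell markers tested, all called higher in B, summed to 26885 and 23566 in B and 133 and 225 in Monocyte, and the 10 monocyte/macrophage markers, 9 called higher in Monocyte, to 536 and 612 in B and 19004 and 25669 in Monocyte. The mean log2 level of the monocyte/macrophage list was 9.95 in Monocyte, 8.43 in Neutrophil and 10.69 in NK, so the NK1.1-positive arrays read these genes at a higher mean than Monocyte. The 9 T cell markers summed to 102 and 138 in B and 198 and 146 in Monocyte, against 15471 in CD4T. Of these, Cd3d was called higher in Monocyte and Cd28 higher in B, the latter dim in all 4 arrays (13.4 and 14.9 in B and 0.457 and 6.34 in Monocyte) and not called with the replicate block, with only the 4 arrays, or without Monocyte replicate 1 or either B replicate. Summed levels were, for the 7 erythroid markers, 229 and 51.98 in B and 182 and 130.0 in Monocyte, against 43921 in Erythroblast. NK markers summed to 509.6 and 493 in Monocyte, of which Nkg7 held 335 and 317, and to 149 and 171 in B. Plasmacytoid dendritic cell markers had 2 of 7 genes called higher in B, Tcf4 (2.72 ± 0.35), a factor that B cells also use, and Pacsin1 (1.12 ± 0.34), while Siglech, a defining marker, was dim at 23.7 and 21.9 in B. Of 7 conventional dendritic cell markers 2 were called higher in Monocyte and 1 in B, of 7 eosinophil, basophil and mast cell markers 2 were called higher in Monocyte, and of 6 megakaryocyte markers 2 were.

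**Figure D5:**
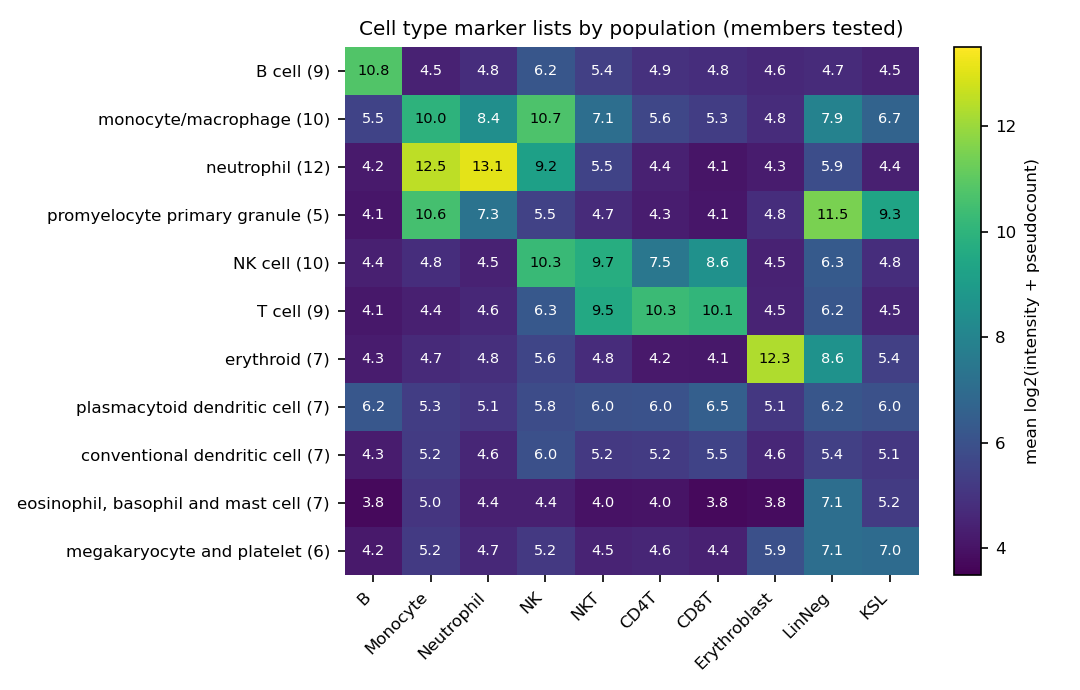
Mean log2(intensity + 6.75) of the tested members of 11 cell type marker lists (rows, with the number of members) in the 10 populations (columns, 2 arrays each). B is highest in the B cell list alone, Monocyte is high in the monocyte/macrophage, neutrophil and primary granule lists, and NK is high in the NK, monocyte/macrophage and neutrophil lists.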

How the data were processed

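Gene expression was measured on 20 Affymetrix Mouse Genome 430 2.0 arrays, of which 2 B and 2 Monocyte arrays are compared here. The deposited values are intensities per probe set on a linear scale, scaled per the labels so that each array's mean after trimming 2% is 100. The summarisation software is not given in the sources used here, and detection calls were not used. The median intensity was 22.74 and 22.49 on the B arrays and 21.71 and 24.0 on the Monocyte arrays, and with 2 arrays per population their number limits the precision. Of 45101 probe sets, 64 were controls, 34945 had 1 gene symbol, 932 several and 9160 none; only those with 1 were used, which gave 18193 genes. RefSeq changed 0 symbols, and 204 probe sets had a gene number it did not match.

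Values were taken as log2(intensity + 6.75), the pseudocount being the 25th percentile of all values. Each gene was read by the probe set with the highest mean log2 value over the 20 arrays. That rule had been fixed as the highest mean without a scale; a first run took the mean intensity, and the log2 scale was settled after its results had been seen, so the first rule is given as an alternative. Genes whose highest population mean exceeded 4.89 on the log2 scale were kept. One limma model (limma 3.58.1, R 4.3.3) with the 10 populations as groups, moderated with a mean-variance trend, was fitted to all 20 arrays, and the script was tested on simulated data. In the text, called genes, shared levels and intervals of 95% come from this fit. Replicate numbers were checked for pairing: deviations of same-numbered B and Monocyte arrays correlated at 0.0433, and over the 45 pairs of populations from -0.0939 to 0.206, so the numbers were not taken to pair the arrays.

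The members and the 38 gene lists, which hold 542 genes of which 488 were tested, were chosen with earlier results of these data known. Named are the 12 called genes with the largest difference in each direction among those with a population mean above 100 and no overlap, without uncharacterised symbols, the 10 shared-level genes with the largest gap to the other populations, the 3 markers Ms4a1, H2-Aa and Lyz2, and members of the lists. Among 509 listed or named genes, 244 had another probe set above the filter, 69 one of opposite sign and 10 one of opposite sign by at least 1, and 67 were read by probe sets that can bind several transcripts. Alternatives covered the pseudocount, scaling, filter, probe set rule, arrays fitted, replicate block, trend, test and each array left out. Promoter sequences came from a RefSeq table on GRCm38.p6.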

Additional observations from a re-analysis of the deposited data

How the results depend on the processing

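No call of a named gene turned to the opposite direction under any of the alternatives run. This covers calls and not the sign of genes that were not called. The total of 3824 calls stayed within 1.5 times except with limma's test against a difference of 1 (treat). That test called 1577 genes, 678 higher in B and 899 higher in Monocyte, all of them among the 3824. Under it the lists kept 0 MHC class I genes, 4 costimulatory genes, 4 Toll-like receptor genes, 1 oxidase gene, 5 lysosomal, 7 macrophage, 1 BCL2 family, 3 plasma cell, 1 replication and 3 interferon response genes, since it asks for more than a size of 1 in the estimate. The mean of all probe sets left 1 BCL2 family gene. Leaving out 1 array gave 3293 calls (without Monocyte replicate 1) to 3734 (without Monocyte replicate 2), from 1 to 2 BCL2 family genes and from 3 to 8 replication genes, the 3 being without Monocyte replicate 1; 1 BCL2 family gene (Bcl2) was called without B replicate 1, B replicate 2 or Monocyte replicate 1, each of which lost Bmf. Among the named genes, Cd28, Cd86, Ly86, Pacsin1 and Unc93b1 lost their call without any one of these 3 arrays, Rag2 without B replicate 1 or Monocyte replicate 1, Pecam1 without B replicate 2 or Monocyte replicate 1, Apoe without B replicate 2 or Monocyte replicate 2, Ifngr1 without B replicate 1 or Monocyte replicate 2, and Ifnar1, Psmb8 and Vcam1 without Monocyte replicate 1. With the replicate block, 3838 genes were called, 3803 of the 3824 among them, and of the named genes Cd28 lost its call; the numbers share no stated origin and did not pair the arrays.

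The probe set rule changed the calls of some named genes. With the probe set of highest mean intensity, an alternative chosen after seeing the data, 3877 genes were called, and H2-Aa (2.33) and Fcgr1 (-2.85) were called, which they were not in the main analysis. With the mean of all probe sets H2-Aa (2.10) and Fcgr1 (-1.87) were called too, as were Cd36, Clta, Ctsz, Ptges and Syk. Under that rule Ms4a6c (-0.49) and Pik3cd (-0.24) were not called, nor were Bmf, Cd28, Cd86, Ighm, Il4ra, Scd2, Slc2a1 and Tgfbr2. Among all genes, 4 of the calls of the main analysis turned sign. Cd36 also gained a call with the pseudocount at the median, with array median centring, and with the filter at the 75th percentile or on B and Monocyte only. Lgmn and Syk gained one with that pseudocount and with only the 4 arrays, which also gained Cd80. Ptges gained one with quantile normalization and with the filter on B and Monocyte only. Array median centring moved the median difference of all genes to 0.0161 and quantile normalization to -0.0215. Values near or below 22.9 are limited by background, and the size of a difference there depends on the pseudocount.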
